A study of Homo sapiens with 6 samples.

Results

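The 39 clustered homeobox (HOX) genes of the human genome were described by cluster and by paralogue number in 3 cell lines. Members were all rows whose symbol is HOX followed by a cluster letter from A to D and a number, which gave 11 HOXA, 10 HOXB, 9 HOXC and 9 HOXD genes among 23340 gene names. RNA sequencing was done on 2 libraries per line, 6 in all, and each line had 1 library labelled with 25M reads and 1 labelled with more. MCF10A is labelled a mammary epithelial line from breast and was grown with horse serum, EGF, hydrocortisone, cholera toxin and insulin. HT-29 is labelled a colon adenocarcinoma line, grown in McCoy's 5A with fetal bovine serum, and both of its libraries carry a label of stimulation with IFN-γ, given at 200 U per ml for 24 hours. MDA-MB-436 is labelled a breast adenocarcinoma line, grown in L-15 with fetal bovine serum, with no stimulation. HT-29 cells without IFN-γ were not analysed here, so line, medium and stimulation cannot be told apart. Separate cultures are not stated for the libraries of a line, so each p-value measures only the spread between libraries, which may be technical.

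HOX genes encode homeodomain transcription factors that set positional identity along the head-to-tail axis. They lie in clusters on 4 chromosomes, HOXA on 7, HOXB on 17, HOXC on 12 and HOXD on 2, and genes at the same place in different clusters are paralogues with the same number. Low numbers are expressed anteriorly and early in the embryo, high numbers posteriorly, and adult epithelia and the cell lines made from them keep a HOX code of their site of origin, with the high-numbered genes typical of the hindgut.

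The line labels went against the RNA. KRT20, an intestinal keratin, had 14524 and 50137 reads in the MDA-MB-436-labelled libraries and 0 and 1 in those labelled HT-29, and VIL1, which encodes the brush-border protein villin, had 998 and 3568 reads against 0 and 0. VIM, the mesenchymal filament vimentin, had 8 and 12 reads in the MDA-MB-436-labelled libraries and 24398 and 64454 in those labelled HT-29. Of 9 intestinal markers 8 were detected in the MDA-MB-436-labelled libraries and 0 in those labelled HT-29, where VIL1, CDX2 and CDX1 had 0 reads and the summed normalised count ran from 4.5 to 8.21 (80040 to 83530 in the former). MCF10A held all 5 mammary basal markers. Groups were kept as labelled, so every direction below is for the libraries labelled with that line's name. Whether the 2 labels were exchanged was not tested.

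Each line had its own HOX repertoire. A gene was written as detected in a line when both libraries reached a normalised count of 10, a count scaled by 1 factor per library. On that rule 21 of 39 were detected in MCF10A, 27 in the HT-29-labelled libraries and 27 in those labelled MDA-MB-436. Reads were 0 in both libraries for 12, 3 and 4 of the 39, which allows up to 3 reads over a line, a normalised count of 1.17 to 1.42 by line. In MCF10A the detected genes were 9 HOXA, 5 HOXB, 7 HOXC and 0 HOXD. The HT-29-labelled libraries had 9, 6, 8 and 4, and those labelled MDA-MB-436 had 11, 9, 7 and 0. As these are bulk samples, fewer cells using a gene and less RNA per cell cannot be told apart.

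Levels of different genes are compared per kilobase of the gene length that the deposited tables imply. Summed over the HOX genes this level was 3553 ± 42.8 (SD, n = 2 libraries) in MCF10A, 1924 ± 37.1 in the HT-29-labelled libraries and 11767 ± 70.0 in those labelled MDA-MB-436. HOXA supplied 63.0% of it in MCF10A, HOXC 27.1%, HOXB 9.90% and HOXD 0.00539%. Where the label was MDA-MB-436, HOXB supplied 67.2%, HOXA 27.9%, HOXC 4.88% and HOXD 0.0806%. The HT-29-labelled libraries were the most even, with 38.2% from HOXA, 32.9% from HOXC, 17.03% from HOXD and 11.9% from HOXB. The shares varied between the libraries of a line by an SD of at most 0.841 percentage points.

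**Figure D1:**
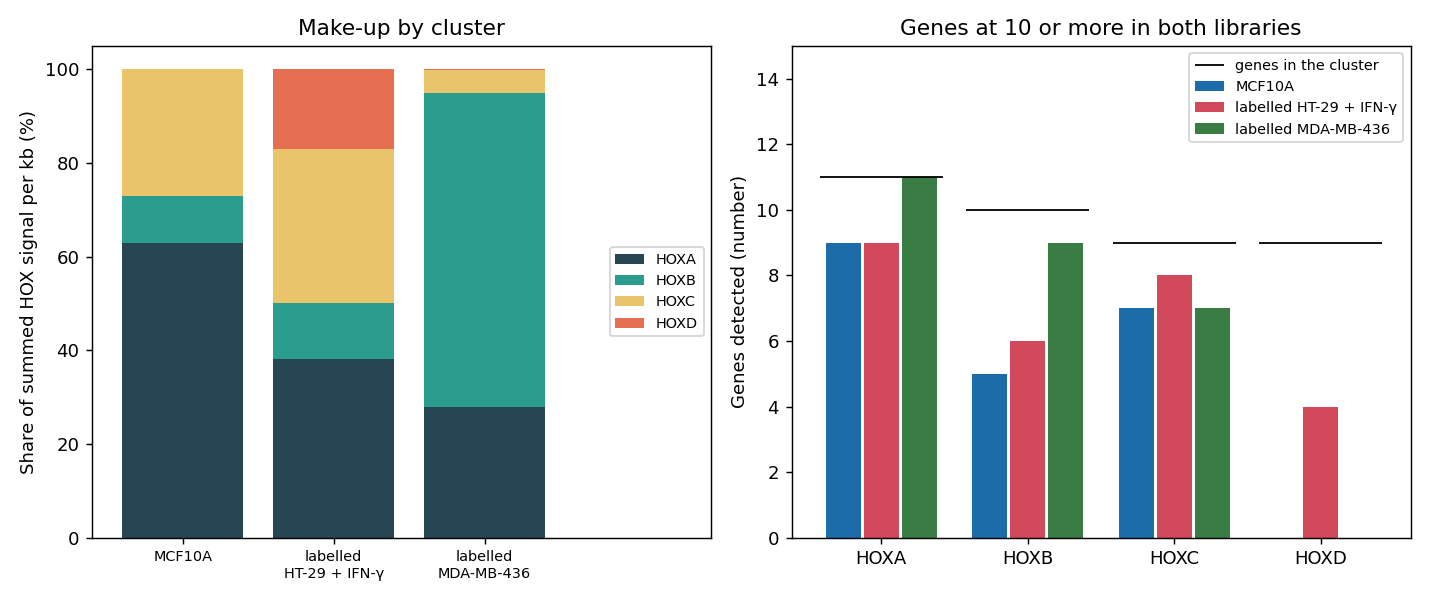
Left, share (%) of the summed HOX signal per kilobase that each cluster supplied, as the mean of 2 libraries per line. Right, number of genes detected per cluster and line, with the cluster's size as a black line: HOXD had 4 detected genes in the HT-29-labelled libraries and 0 in the others.

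Single genes led each profile. HOXA5, a regulator of epithelial differentiation in lung and breast, was first in MCF10A at 956 ± 30.9 per kilobase, 26.9% of the HOX total. HOXB9 was first in the MDA-MB-436-labelled libraries at 5037 ± 43.1, 42.8% of the total, ahead of HOXA10 at 871 ± 37.1. HOXA10, which patterns the posterior trunk and the uterus, was first in the HT-29-labelled libraries at 307 ± 3.75, ahead of HOXD4 at 222 ± 9.59 and HOXC6 at 175 ± 3.83. HOXA10 was second in MCF10A at 400 ± 2.77, so it was among the top 2 in every line.

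Differences were tested with limma on log2(normalised count + 1) over all 15638 genes that reached 10 in at least 2 libraries, of which 32 are HOX genes. The other 7, HOXB1, HOXC12, HOXD1, HOXD9, HOXD10, HOXD11 and HOXD12, were detected in no line and were not tested. HOXB5 and HOXB8 reached 10 only in the MDA-MB-436-labelled libraries, and HOXD3, HOXD4 and HOXD8 only in those labelled HT-29. These genes passed the filter through that line alone, so being higher there was fixed in advance. A gene was called at a Benjamini-Hochberg adjusted p below 0.05 with a log2 fold change of at least 1 in size. The log2(value + 1) scale understates the change of low genes, so a fold given in words is the ratio of the reads pooled by line, with a 95% counting interval, or bounds against 3 reads where a line had 0. The comparisons share libraries and are not independent of each other.

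In the MDA-MB-436-labelled libraries against MCF10A, 17 of the 39 were higher, 9 lower, 6 not called and 7 not tested. Of all 15638 genes 25.6% were called higher and 23.7% lower (49.2% in either direction). In the HT-29-labelled libraries against MCF10A, 11 were higher, 14 lower and 7 not called, where 28.4% and 18.1% of all genes were (46.5% in either direction). Between the HT-29-labelled libraries and those labelled MDA-MB-436, 6 were higher in the former, 17 lower and 9 not called, where 29.9% and 23.5% of all genes were (53.4% in either direction). The median log2 fold change of the tested HOX genes was 1.08 in the first comparison, 0.026 in the second and -1.36 in the third, beside 0.00, 0.131 and 0.093 for all genes. Setting the genes with 0 reads to their bound left these 3 HOX medians as they were. Scaling to library size moved the median of all genes by 0.31 and 0.327 in the comparisons with the HT-29-labelled libraries, and with it 10 HOX genes were lower there than in MCF10A in place of 14.

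**Figure D2:**
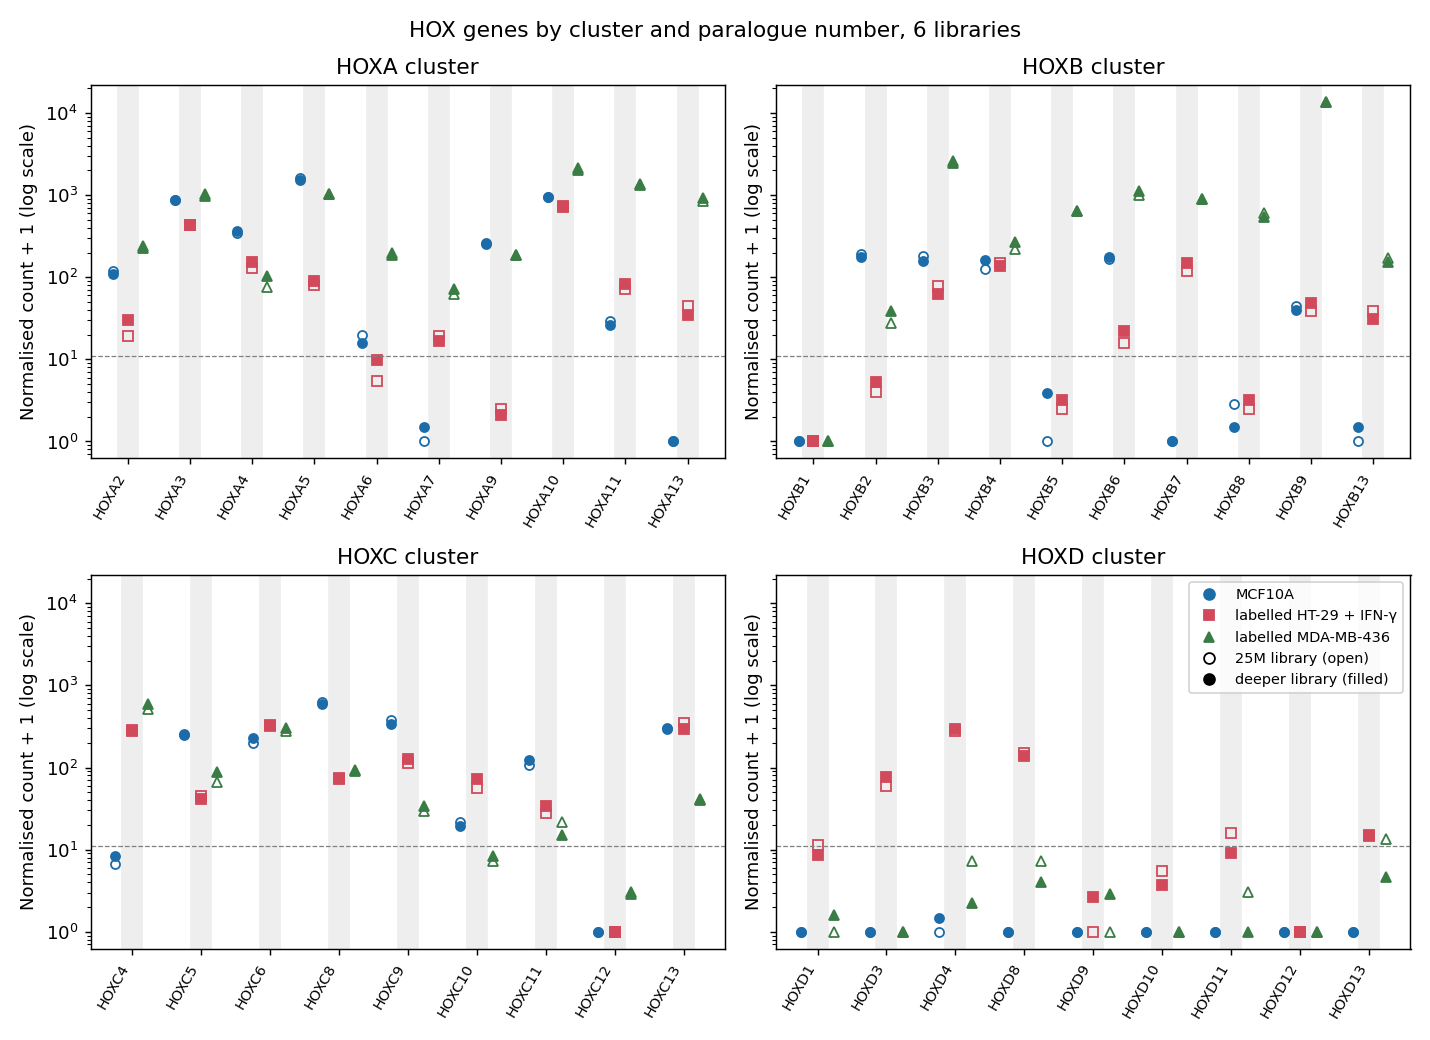
Normalised count + 1 on a log axis for the HOX genes reported, in 4 panels by cluster, ordered by paralogue number; open points are the 25M libraries, filled points the deeper ones, and the dashed line marks a normalised count of 10. HOXB9 in the MDA-MB-436-labelled libraries is the highest point, and the HOXD panel is near 0 outside the HT-29-labelled libraries.

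The HOXA cluster was in use from end to end in the MDA-MB-436-labelled libraries, which detected all 11 genes, while the other lines each left 2 out. Its anterior genes HOXA2 and HOXA3 act in hindbrain and pharyngeal patterning and were detected in every line. HOXA2 was at 120 and 108 in MCF10A, 18 and 29 in the HT-29-labelled libraries and 241 and 229 in those labelled MDA-MB-436, so the lines did not overlap. It was 4.24-fold lower in the HT-29-labelled libraries than in MCF10A (interval 3.23 to 5.64) and 2.10-fold higher in those labelled MDA-MB-436 (1.81 to 2.44), a call that was lost without the deeper MCF10A library (log2 fold change 0.97). HOXA3 differed little between MCF10A, at 882 and 879, and the MDA-MB-436-labelled libraries, at 1023 and 971, a log2 fold change of 0.18 that was under the fold threshold, and was lower in those labelled HT-29, at 429 and 430.

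The central genes HOXA4 to HOXA7 split the lines. HOXA5 was 1618 and 1546 in MCF10A, 79.5 and 89.7 in the HT-29-labelled libraries and 1031 and 1018 in those labelled MDA-MB-436. The HT-29-labelled libraries were thus far below both other lines, 17.9-fold below MCF10A (interval 15.6 to 20.7, log2 fold change -4.21, SE 0.07, limma adjusted p = 2.27e-09). HOXA4 was highest in MCF10A, at 346 and 362 against 131 and 152 and then 76.2 and 102. HOXA6 was highest where the label was MDA-MB-436, at 198 and 184 against 18.7 and 14.7 in MCF10A and 4.50 and 8.75. HOXA7 had 1 read in MCF10A over both libraries, against 41 and 145 reads in the lines labelled HT-29 and MDA-MB-436. By the GENCODE 29 annotation 62.5% of the HOXA7 exon bases and 39.3% of the HOXA6 ones are also covered by the antisense transcript HOXA-AS3, so without strand their reads cannot be told from its reads. Other transcripts cover 47.3% of the HOXA4 exon bases.

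Of the posterior HOXA genes HOXA10, HOXA11 and HOXA13 were highest in the MDA-MB-436-labelled libraries, and HOXA9 was not. HOXA9 is a known leukaemia gene that binds DNA with MEIS1. It was 258 and 253 in MCF10A and 183 and 187 in the MDA-MB-436-labelled libraries, but 1.5 and 1.09 in those labelled HT-29, 211.2-fold below MCF10A (3 reads against 653, interval 71.9 to 1027). HOXA9 between MCF10A and the MDA-MB-436-labelled libraries was not called (log2 fold change -0.46, limma adjusted p = 0.0524). HOXA10 was 957 and 948, 726 and 739, and 2139 and 2014, detected in every line and highest in the MDA-MB-436-labelled libraries (log2 fold change 1.12 against MCF10A, limma adjusted p = 1.04e-07). HOXA11, active in limb and uterus, was 28.1 and 25.5, 70.5 and 81.5, and 1359 and 1341. The lines did not overlap, and the last was 51.6-fold above MCF10A (interval 40.5 to 66.8).

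HOXA13, which specifies the hindgut and the end of the limb, is the last gene of the cluster and was not detected in MCF10A. It had 0 reads in both MCF10A libraries, normalised counts of 43.5 and 33.9 in the HT-29-labelled libraries and 844 and 923 in those labelled MDA-MB-436. These were at least 31.3-fold and at least 776-fold above MCF10A. Between them the HT-29-labelled libraries were 24.8-fold lower (interval 20.1 to 31.0, log2 fold change -4.49, limma adjusted p = 4.27e-07).

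Promoter letters are given for a few genes that carry these contrasts, from RefSeq on GRCh38.p14 (the tables were made on hg19), as the 250 bases before the start, 5′ to 3′ on the gene's strand, with each CG in capitals. A promoter entry matched 20 of the 39 symbols. HOXA13, at chr7:27200092-27200341 on the minus strand, is shown because it had 0 reads in MCF10A and was high in the MDA-MB-436-labelled libraries, and is also the richest of the 27 HOX entries in CG, with 40.
HOXA13: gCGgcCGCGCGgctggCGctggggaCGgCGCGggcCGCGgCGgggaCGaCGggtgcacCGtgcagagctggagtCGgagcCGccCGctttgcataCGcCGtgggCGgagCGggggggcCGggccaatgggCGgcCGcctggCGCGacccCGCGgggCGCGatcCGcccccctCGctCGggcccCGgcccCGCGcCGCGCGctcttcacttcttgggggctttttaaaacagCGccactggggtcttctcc
The HOX entries held 0 to 40 CG with a median of 19, and all 35116 promoters a median of 11. CG content is a property of the reference, and no methylation was measured.

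HOXB gave the MDA-MB-436-labelled libraries most of their HOX signal. There 7 of the 10 were higher than in MCF10A, 1 was lower, 1 was not called and 1 was not tested. Among all genes tested, 25.6% were called higher and 23.7% lower in this comparison. Of the anterior genes HOXB2, which acts in hindbrain patterning, was the exception: it was 193 and 175 in MCF10A, 3.00 and 4.38 in the HT-29-labelled libraries and 26.8 and 38.2 in those labelled MDA-MB-436, so MCF10A was above both (5.03-fold above the last, interval 3.94 to 6.51). HOXB3, a neighbour of HOXB2, went the other way, with 182 and 159, 76.5 and 60.7, and 2627 and 2494. HOXB4, known for expanding blood stem cells, was within the range of 125 to 265 in all 6 libraries and was called in no comparison. HOXB1 had 0 reads in every library.

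The central HOXB genes were near 0 in the lines that lacked them. HOXB5, a gut and lung patterning gene, was 0.00 and 2.95 in MCF10A, 1.5 and 2.19 in the HT-29-labelled libraries, and 636 and 636 in those labelled MDA-MB-436. HOXB8 was 1.87 and 0.49, 1.5 and 2.19, and 605 and 544. These are the only HOX genes detected in the MDA-MB-436-labelled libraries alone, 273-fold (interval 125 to 744) and 718-fold (198 to 5935) above MCF10A. HOXB6 lies between HOXB5 and HOXB7 but was detected in every line, at 167 and 176, 15 and 21.3, and 998 and 1126. HOXB6 shares 32.9% of its exon bases with HOXB-AS3 and HOXB3. HOXB7, overexpressed in many carcinomas, had 0 reads in MCF10A, 119 and 147 in the HT-29-labelled libraries and 904 and 903 in those labelled MDA-MB-436, at least 120-fold and at least 774-fold above MCF10A. MCF10A therefore kept HOXB6 while HOXB5, HOXB7 and HOXB8 on either side were under the detection minimum.

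Of the posterior HOXB genes, HOXB9 was 43.1 and 38.8 in MCF10A, 37.5 and 47.6 in the HT-29-labelled libraries and 13507 and 13671 in those labelled MDA-MB-436. HOXB9 acts in mammary and rib development. The first pair overlapped, with a log2 fold change of 0.05 (SE 0.12), and the last was 344-fold above MCF10A (interval 283 to 422, log2 fold change 8.34, SE 0.12, limma adjusted p = 5.58e-10). HOXB13, a prostate and hindgut gene, had 1 read in MCF10A, normalised counts of 37.5 and 30.1 in the HT-29-labelled libraries and 173 and 153 in those labelled MDA-MB-436. It was higher than in MCF10A in both (log2 fold changes 4.82 and 7.07, limma adjusted p = 1.88e-06 and 1.61e-07).

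HOXC was lower than in MCF10A for most of its genes in the MDA-MB-436-labelled libraries. Of 9 genes 6 were called lower there, 1 was higher, 1 was not called and 1 was not tested. Among all genes tested, 23.7% were called lower and 25.6% higher in this comparison. HOXC8, a trunk patterning gene, was 625 and 601 in MCF10A, 70.5 and 73.9 in the HT-29-labelled libraries and 92.6 and 89.9 in those labelled MDA-MB-436. HOXC9 was 376 and 343, 114 and 125, and 28.8 and 33.3, with no overlap between lines, and was 10.9-fold lower in the last than in MCF10A (interval 8.47 to 14.1). HOXC11 was 107 and 124, 27 and 32.8, and 20.6 and 14.2. MCF10A was the highest line for each of these.

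HOXC13, which controls hair and nail keratins, was shared by MCF10A, at 294 and 299, and the HT-29-labelled libraries, at 347 and 294, while those labelled MDA-MB-436 stood at 39.1 and 40.6. The difference between the first pair was within the spread (log2 fold change 0.11, SE 0.12), and both were about as far above the last (7.39-fold and 7.65-fold). HOXC10 was highest in the HT-29-labelled libraries, at 55.5 and 71.7 against 20.6 and 18.2 in MCF10A and 6.18 and 7.39. HOXC6, a gene of mammary and prostate epithelium, was between 198 and 333 in all 6 libraries and called in no comparison. HOXC12 had 4 reads in all, in the MDA-MB-436-labelled libraries.

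HOXC4 and HOXC5 moved in opposite directions although their RefSeq entries share a start. HOXC4, expressed in lymphoid cells, was 5.62 and 7.36 in MCF10A, 288 and 274 in the HT-29-labelled libraries and 519 and 594 in those labelled MDA-MB-436. MCF10A was far below both, by 39.7-fold (interval 24.9 to 67.4) and 82.4-fold (51.9 to 140). HOXC5 was 257 and 245 in MCF10A, 43.5 and 40.5 in the HT-29-labelled libraries and 65.9 and 86.8 in those labelled MDA-MB-436, so here MCF10A was above both, by 5.99-fold (4.86 to 7.45) and 3.02-fold (2.55 to 3.59). All 4 of these changes passed the test, with limma adjusted p from 2.79e-05 for HOXC5 to 9.5e-09 for HOXC4 in the MDA-MB-436-labelled libraries. Exons of other HOXC genes cover 17.8% of HOXC4 and 14.4% of HOXC5, and transcripts of any other gene cover 43.4% of HOXC5. Some reads of HOXC4 and HOXC5 therefore cannot be assigned to 1 gene. The start they share, at chr12:54016638-54016887 on the plus strand, holds 14 CG.
HOXC4 and HOXC5: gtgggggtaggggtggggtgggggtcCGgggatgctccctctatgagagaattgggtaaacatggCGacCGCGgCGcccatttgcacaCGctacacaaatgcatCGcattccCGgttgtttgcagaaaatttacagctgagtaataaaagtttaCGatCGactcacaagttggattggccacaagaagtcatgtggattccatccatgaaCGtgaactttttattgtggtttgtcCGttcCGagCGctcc

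HOXD was detected in the HT-29-labelled libraries alone. HOXD4, a hindbrain patterning gene, had normalised counts of 279 and 297 there, 0.00 and 0.49 in MCF10A and 6.18 and 1.23 in the MDA-MB-436-labelled libraries. It was 123-fold above the last (interval 52.5 to 380, log2 fold change 6.17, SE 0.55, limma adjusted p = 1.28e-05). HOXD8 was 149 and 136 against 0 reads in MCF10A and 6.18 and 3.08 in the MDA-MB-436-labelled libraries. HOXD3 was 58.5 and 75.5 against 0 reads in both other lines, at least 60.8-fold above MCF10A and at least 49.9-fold above the MDA-MB-436-labelled libraries. All 3 genes were thus high in both libraries labelled HT-29 and near 0 in the other 4. They passed the filter only through that line, so the test adds nothing on their direction. By GENCODE 29 other transcripts cover 80.5% of the HOXD4 exon bases and 74.1% of the HOXD3 ones, where reads cannot be told apart, and cover none of HOXD8.

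At the posterior end HOXD13, a limb and genital gene, was 13.5 and 14.2 in the HT-29-labelled libraries, 0 reads in MCF10A, and 12.4 and 3.70 in those labelled MDA-MB-436. Its difference between the last pair was not called (limma adjusted p = 0.138), and was called once the 25M MDA-MB-436-labelled library was left out (log2 fold change 1.66, limma adjusted p = 0.0137). HOXD1, HOXD10 and HOXD11 had 21, 8 and 25 reads in the HT-29-labelled libraries, HOXD9 had 3, and HOXD12 had 0 reads in every library. Against MCF10A, with 0 reads, HOXD11 was at least 8.59-fold and HOXD1 at least 7.22-fold higher. Against the MDA-MB-436-labelled libraries, with 1 read each, the ratios were 21.1-fold for HOXD11 (interval 3.46 to 868) and 17.8-fold for HOXD1 (2.86 to 735), by counting error only. HOXD4 in the MDA-MB-436-labelled libraries against MCF10A rests on 5 reads against 1: its log2 fold change of 1.71 was called (limma adjusted p = 0.0192), but the call was lost with edgeR (adjusted p = 0.0789) and DESeq2 (adjusted p = 0.0918) on the recovered reads. Without the 25M library of either of the lines compared, MCF10A or MDA-MB-436, the limma adjusted p was 0.124 or 0.0803, and without either library labelled HT-29 it was 0.0649 or 0.0651.

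HOXD8 and HOXD4 are shown as the HOXD genes of this kind with a promoter entry at the gene's own start, at chr2:176129455-176129704 and chr2:176151300-176151549, both on the plus strand. They differ in CG content, with 28 against 4, and both were detected in the same libraries.
HOXD8: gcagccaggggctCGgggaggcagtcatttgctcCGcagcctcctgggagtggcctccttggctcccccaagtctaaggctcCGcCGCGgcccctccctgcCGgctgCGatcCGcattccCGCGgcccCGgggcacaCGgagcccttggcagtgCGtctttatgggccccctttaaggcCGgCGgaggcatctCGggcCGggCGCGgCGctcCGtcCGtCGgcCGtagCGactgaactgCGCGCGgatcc
HOXD4: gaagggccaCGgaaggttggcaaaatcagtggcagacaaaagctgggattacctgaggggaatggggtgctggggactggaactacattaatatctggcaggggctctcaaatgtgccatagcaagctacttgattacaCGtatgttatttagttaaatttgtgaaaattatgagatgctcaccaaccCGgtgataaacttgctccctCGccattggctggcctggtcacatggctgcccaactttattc
The letters TTTATG, as bound by CDX factors, were searched on both strands and stood in the HOXD8, HOXA3 and HOXA9 entries, 3 of 27, and in 9.6% of all promoters. In HOXD8 they start 92 bases before the gene. TGATNNAT, a composite of a PBX and a HOX half-site, was in 3 of 27 (HOXA2, HOXB1 and HOXD11) and in 6.5% of all. Matches of these motifs can overlap, and a match describes letters only.

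**Figure D3:**
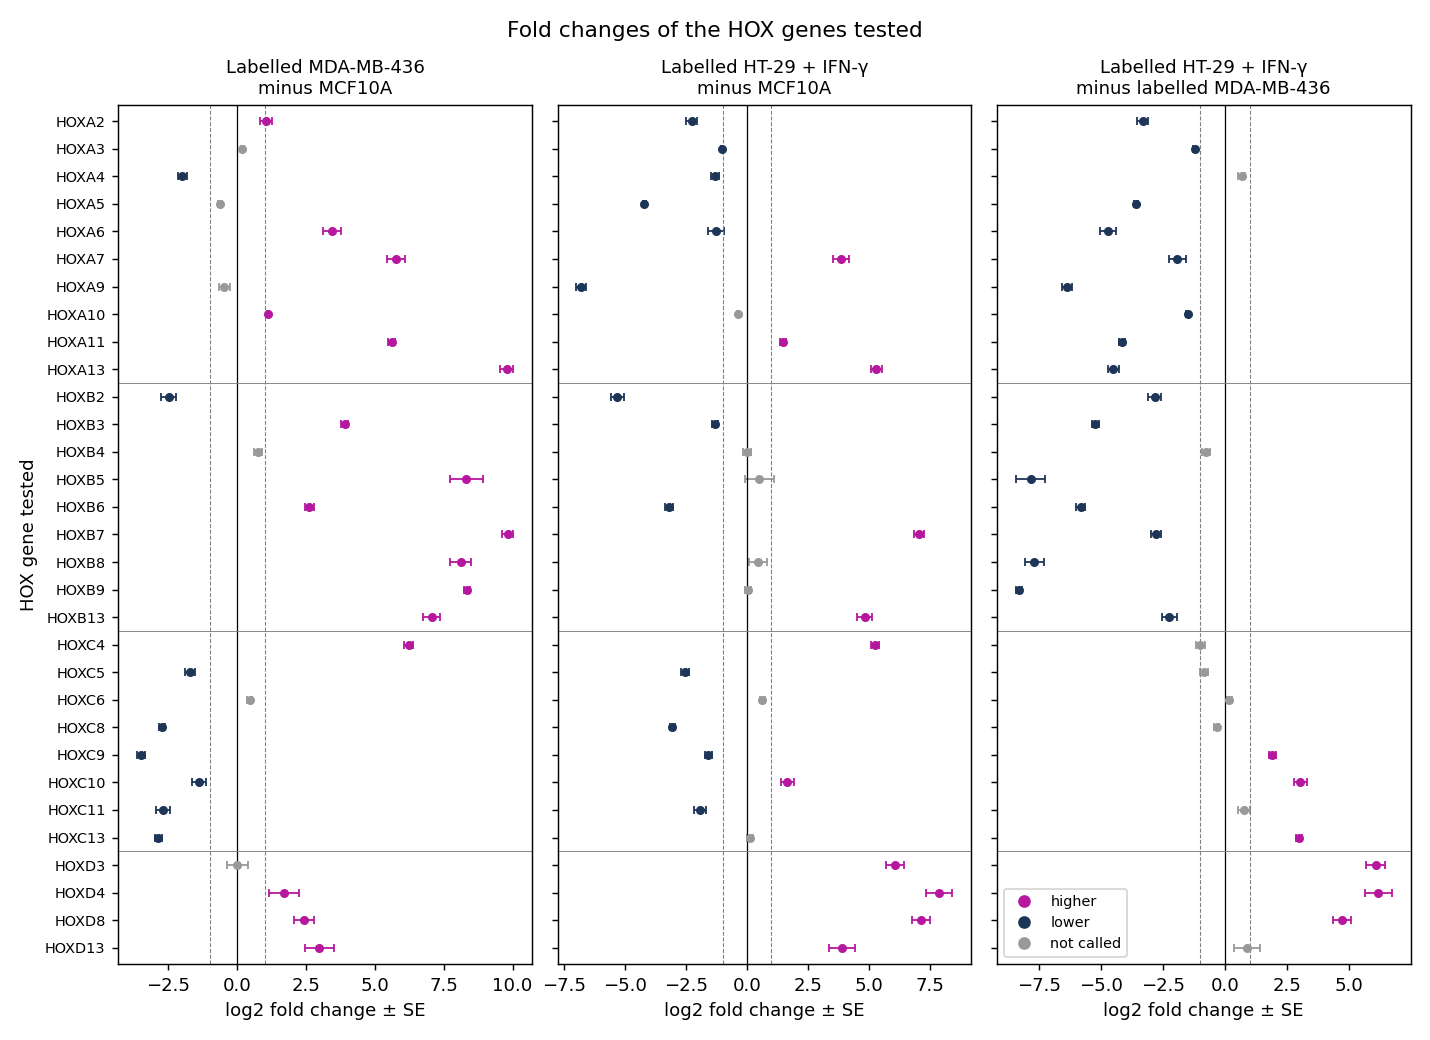
log2 fold change ± SE (limma) of the tested HOX genes reported, in the 3 comparisons, by cluster, with dashed lines at 1 and -1 and colour for the call. Against MCF10A most HOXB genes in the MDA-MB-436-labelled libraries lie right of 0 and most HOXC genes left, and HOXD genes lie right of 0 wherever the HT-29-labelled libraries come first. HOXD3, HOXD4 and HOXD8 passed the filter only through those libraries, which fixed their side.

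Read by paralogue number, each line met a given position with a different cluster. At position 13 MCF10A detected HOXC13 alone, the HT-29-labelled libraries all 4 paralogues and those labelled MDA-MB-436 HOXA13, HOXB13 and HOXC13. HOXC13 made 99.9% of the position's level per kilobase in MCF10A and 80.5% in the HT-29-labelled libraries, while HOXA13 made 82.7% in those labelled MDA-MB-436. At position 9 the leading gene was HOXC9 in MCF10A (62.6%) and in the HT-29-labelled libraries (82.2%) and HOXB9 in those labelled MDA-MB-436 (97.8%). Position 7 was empty in MCF10A, which detected neither HOXA7 nor HOXB7, and HOXB7 led it in the other lines (92.0% and 95.3%). At position 4 HOXA4 led in MCF10A, HOXD4 in the HT-29-labelled libraries and HOXC4 in those labelled MDA-MB-436, with 73.5%, 43.1% and 61.8%. Position 10 was led by HOXA10 in every line, with 97.6%, 89.9% and 99.6%. In all, 17 genes were detected in every line, among them HOXA2 to HOXA5, HOXA10, HOXB4 and HOXC6, and 0 genes in MCF10A alone.

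Among members with at least 50 reads, the deeper library had 0.876 to 1.28 times the normalised count of the 25M one in MCF10A, 0.780 to 1.61 in the HT-29-labelled libraries and 0.883 to 1.43 in those labelled MDA-MB-436. The recovered depth was 18.3 and 69.5M reads, 18.4 and 50.2M, and 16.7 and 56.4M. HOX reads, in RPM of all recovered reads, were 213 and 211, 144 and 147, and 817 and 814, so the lines did not overlap. The HOX reads of the MCF10A libraries differed by no more than sampling, with a median chi-square of 0.298 where sampling alone gives 0.455, while over all genes the MCF10A value was 0.557. In the other lines the HOX reads differed by more, with a median chi-square of 0.576 in the HT-29-labelled libraries (0.712 over all genes) and 0.968 in those labelled MDA-MB-436 (0.683). Summing the MCF10A libraries into 1 sample ended 1 HOX call, HOXD4 in the MDA-MB-436-labelled libraries.

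Non-coding transcripts of the clusters were mostly higher in the MDA-MB-436-labelled libraries. Of the 16 listed, 9 were tested: 8 were higher than in MCF10A there, 0 lower and 1, HOTAIRM1, not called, with a median log2 fold change of 4.08 (3.77 with transcripts at 0 reads set to their bound), beside 25.6% higher, 23.7% lower and a median of 0.00 for all genes. In the HT-29-labelled libraries against MCF10A 2 were higher, 4 lower and 3 not called, with a median of -0.21, beside 28.4% higher, 18.1% lower and 0.131 for all genes. HOTTIP, HOXB-AS3, HOXA-AS3, FLJ12825 and MIR196A1 reached 10 only in the MDA-MB-436-labelled libraries. They passed the filter through that line alone, so being higher there was fixed in advance. The first count and median are inflated by this. HOTTIP, transcribed from the HOXA13 end of HOXA and known to recruit an activating methyltransferase there, had 205 and 741 reads in the MDA-MB-436-labelled libraries and 0 in the other 4. HOTAIR, transcribed from HOXC and known as a partner of Polycomb, was 22.5 and 19.6 in MCF10A, 16.5 and 19.7 in the HT-29-labelled libraries and 535 and 522 in those labelled MDA-MB-436, 26-fold above MCF10A (interval 19.7 to 35.0). HOXC11, beside which it lies, was lower there than in MCF10A, as given above. HOXB-AS3, within HOXB, had 288 and 987 reads in the MDA-MB-436-labelled libraries, 1 and 2 in those labelled HT-29 and 0 in MCF10A. HOXD-AS1 was 67.5 and 85.9 in the HT-29-labelled libraries, where HOXD genes were detected, against 1.87 and 0.00 and 16.5 and 9.24. Whether counting used strand is not given in the sources used here. Without strand a HOX gene and an antisense partner over the same bases share their reads.

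**Figure D4:**
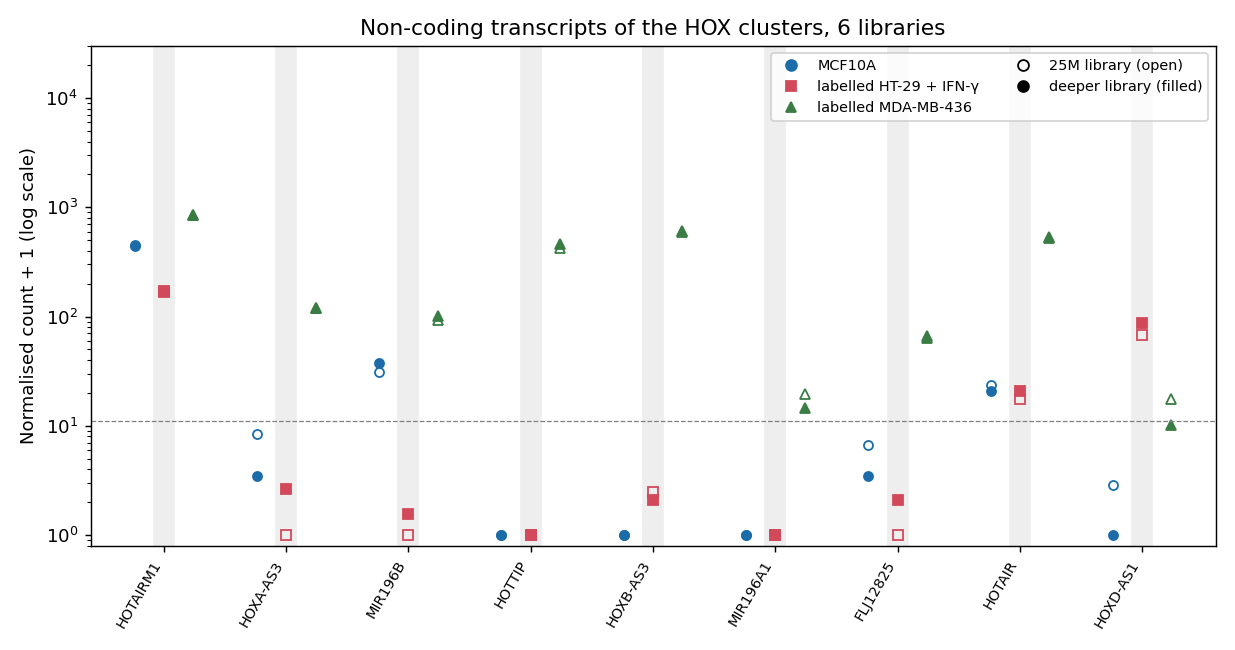
Normalised count + 1 on a log axis for the 9 tested non-coding transcripts of the clusters, in order of cluster A to D; open points are the 25M libraries, filled the deeper ones, and the dashed line marks 10. All but HOXD-AS1 are highest in the MDA-MB-436-labelled libraries.

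The clusters also encode microRNAs that target HOX transcripts, of which miR-196 is best known for HOXB8. The rows for these genes count reads over the precursor bases and do not measure the mature microRNA. MIR196B, in HOXA, had 16 and 74 reads in MCF10A, 0 and 1 in the HT-29-labelled libraries and 45 and 163 in those labelled MDA-MB-436. By GENCODE 29 MIR196B covers 2.8% of the HOXA9 exon bases, where its reads cannot be told from HOXA9 reads. MIR196A1, in HOXB, had 9 and 22 reads in the MDA-MB-436-labelled libraries and 0 in the other 4, and HOXB8 was high in those same libraries. Mature sequences are given from RefSeq with the seed, bases 2 to 8, in capitals, to show the seed they share; they differ by A12C, with miR-196a first and positions from its 5′ end.
miR-196a-5p: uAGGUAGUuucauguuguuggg
miR-196b-5p: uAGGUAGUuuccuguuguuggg
The best match in the GENCODE 29 transcript of HOXB8 paired with 21 of the 22 bases of miR-196a and departed from its complement by A18G, counted from the 5′ end of the site, with the paired bases in capitals.
HOXB8 site: CCCAACAACATGAAACTgCCTA
The next best match among the HOX transcripts was HOXA7 with 15. The seed complement ACTACCT, searched on the transcript strand, stood in 10 of 39 HOX transcripts (25.6%) and in 17.1% of 19669 genes, with median transcript lengths of 1989 and 2934 bases. HOXB8 was not among the 10, since its A18G change lies opposite a base of the seed.

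Of 16 tested flanking genes 4 were higher and 5 lower in the MDA-MB-436-labelled libraries than in MCF10A (median log2 fold change -0.08, beside 25.6% higher, 23.7% lower and a median of 0.00 for all genes), and 1 and 1 in those labelled HT-29 (median -0.02, beside 28.4%, 18.1% and 0.131). SKAP1, an adaptor protein gene next to HOXB, had normalised counts of 529 and 543 in the MDA-MB-436-labelled libraries and at most 0.55 in the other 4. SKAP2 next to HOXA was called in no comparison, at 2244 to 3319 in all 6. The ParaHox gene CDX2, a regulator of intestinal identity that acts upstream of HOX genes in the embryo, was 194 and 182 in the MDA-MB-436-labelled libraries with 0 reads in the other 4, at least 158-fold above MCF10A. PDX1, a ParaHox gene of duodenum and pancreas, was 222 and 232 there against 1.87 and 0.49 in MCF10A and 10.5 and 8.21. CDX1, CDX4, GSX1, GSX2, EVX1 and EVX2 were not tested.

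TALE homeodomain proteins (PBX, MEIS, PKNOX, TGIF) bind DNA beside HOX proteins. Of 11 tested, 4 were higher and 0 lower in the HT-29-labelled libraries than in MCF10A (median log2 fold change 0.76, beside 28.4% higher, 18.1% lower and a median of 0.131 for all genes), and 3 higher and 3 lower in those labelled MDA-MB-436 (median 0.05, beside 25.6%, 23.7% and 0.00). PBX4 was 225 and 212 in the HT-29-labelled libraries, 9.36 and 9.33 in MCF10A and 20.6 and 29.6 in those labelled MDA-MB-436, and PKNOX2 was 170 and 176 against 1.87 and 1.96 and 0 reads. TGIF1, a repressor of the same family, was highest in the MDA-MB-436-labelled libraries (log2 fold change 2.68 against MCF10A, limma adjusted p = 3.32e-10).

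Polycomb proteins keep HOX genes silent, and of 33 tested 10 were higher and 5 lower in the MDA-MB-436-labelled libraries than in MCF10A (median log2 fold change 0.38), and 8 and 1 in those labelled HT-29 (median 0.29). Of all genes 25.6% were called higher and 23.7% lower in the first of these comparisons and 28.4% and 18.1% in the second, with medians of 0.00 and 0.131. SUZ12, a core subunit of the H3K27 methyltransferase, was 8224 and 8056 in the MDA-MB-436-labelled libraries against 2013 and 1970 in MCF10A. CBX2, which reads the mark, was 177 and 156 against 1174 and 1098, and PHC1 was 8.23 and 9.85 against 84.3 and 92.3. Trithorax proteins and H3K27 demethylases keep HOX genes active, and of 20 tested 7 were higher and 2 lower in the MDA-MB-436-labelled libraries (median 0.54), and 4 and 4 in those labelled HT-29 (median -0.28), beside the same shares and medians of all genes. MLLT3, a subunit of an elongation complex, was 4161 and 4132 in the MDA-MB-436-labelled libraries against 58.1 and 53.5 in MCF10A. KDM6B, which removes H3K27 methylation, was higher than in MCF10A in both lines (log2 fold changes 2.67 and 2.06, limma adjusted p = 6.14e-10 and 3.59e-09). Other members of this list went the other way. ASH2L (log2 fold changes -1.97 and -1.12) and MEN1 (-1.08 and -1.01) were lower in both lines, in the same order. MLLT1 was called lower in the HT-29-labelled libraries (-1.77).

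Retinoic acid induces the anterior HOX genes in the embryo. Of 16 tested genes of its signalling 8 were higher and 4 lower in the MDA-MB-436-labelled libraries than in MCF10A (median log2 fold change 0.96, beside 25.6% higher, 23.7% lower and a median of 0.00 for all genes), and 8 and 3 in those labelled HT-29 (median 1.37, beside 28.4%, 18.1% and 0.131). RARB, a receptor and itself a target, was 413 and 432 in the HT-29-labelled libraries, 5.62 and 3.93 in MCF10A and 0.00 and 0.62 in those labelled MDA-MB-436. CYP26B1, which degrades retinoic acid, was 1769 and 1793, 513 and 471, and 10.3 and 11.7 in the same order. ALDH1A1, a retinal-oxidising enzyme, was high in the MDA-MB-436-labelled libraries, at 4420 and 4503 against 1.87 and 3.44 in MCF10A. Of the HOX genes numbered 2 or 3, HOXA2, HOXA3, HOXB2 and HOXB3 were lower in the HT-29-labelled libraries than in MCF10A, and HOXD3 was higher. Among those numbered 4, HOXC4 and HOXD4 were higher (log2 fold changes 5.24 and 7.89), HOXA4 was lower (-1.32) and HOXB4 was not called. With scaling to library size HOXA3 fell under the fold threshold, at a log2 fold change of -0.72, and HOXB3 just under it at -0.998.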

How the data were processed

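RNA was sequenced in 6 libraries of 3 cell lines, grouped by the cell line label. Per the submitters' processing notes FastQC, STAR 2.2.0, HTSeq and hg19 were used. The annotation is not given in the sources used here. Each deposited table gives, per the file headers, a normalised count (a signal scaled by 1 factor per library) and an RPKM value for 23368 rows. All values above 0 were whole multiples of 1 step (tolerance 0.001), so whole reads were recovered (16.7 to 69.5M per library). The deposited RPKM values did not match the symbol in 3546 rows (15.2%) and served only to read gene lengths. For all 37 HOX rows with reads, that length agreed between libraries within 0.1%. Leaving out 28 rows with date names kept 23340.

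The fit was limma 3.58.1 in R 4.3.3, trended and robust, on log2(normalised count + 1), with all 6 libraries in 1 fit and 3 residual degrees of freedom. It was checked on simulated counts. edgeR 4.0.16 and DESeq2 1.42.0 on recovered reads, other scalings, filters, pseudocounts and left-out libraries were alternatives. A gene was filtered at a normalised count of 10 in 2 libraries. Intervals (exact, 95%) and floors of 3 reads over a line cover counting error only. Named are the members, except 1 that enters the counts and sums but is not reported here, and, from each list, up to 2 called genes per direction with the largest change, all cluster transcripts and flanking genes, and a marker panel. Members and lists were chosen with earlier results of these data known. Lists are described by counts, with no set test. Sequences are from RefSeq (GRCh38.p14) and GENCODE 29.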

Additional observations from a re-analysis of the deposited data

How the results depend on the processing

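The 96 HOX fold changes (32 genes, 3 comparisons) were refitted under 19 other settings, giving 1821 values: 1757 kept direction and call, 31 lost the call, 15 gained it and 18 changed sign, 0 of them while called. All sign changes were in the libraries labelled HT-29 against MCF10A. HOXB4 (0.00) became -0.20 with edgeR, -0.043 with DESeq2, -0.084 with TMM scaling, -0.21 with limma-voom and -0.11 with the MCF10A libraries summed, and leaving out 1 library gave -0.17 to 0.18. HOXB5 (0.51, from 5 and 6 reads) became -0.29 with edgeR, -0.20 with DESeq2 and -0.24 with the MCF10A libraries summed, and ran from -0.48 without the 25M MCF10A library to 1.497, a call, without the deeper one. HOXB8 (0.45) ran from -0.025 without the deeper MCF10A library to 0.92 without the other. HOXB9 (0.05) became -0.040 with TMM scaling and ran from -0.12 to 0.22 with 1 library left out. HOXC13 (0.11) became -0.023 with edgeR and -0.037 with limma-voom, and ran from -0.010 to 0.22 with 1 library left out.

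Tested against a fold of 2, 9 in place of 14 HOX genes were lower in the libraries labelled HT-29 than in MCF10A, since that test asks for a change beyond the fold threshold. Leaving out 1 library at a time gave 11 to 12 higher and 13 to 14 lower there, 16 to 17 higher and 9 to 9 lower for the libraries labelled MDA-MB-436 against MCF10A, and 6 to 8 higher and 17 to 19 lower for HT-29 against MDA-MB-436 as labelled. Without the 25M MDA-MB-436-labelled library HOXC4 and HOXC5 were called lower and HOXC11 and HOXD13 higher in that comparison. HOXA2 (MDA-MB-436 against MCF10A as labelled) lost its call without the deeper MCF10A library, and HOXA6 (HT-29 against MCF10A as labelled) without either 25M library of those lines. HOXC4 in the last comparison (-0.98) passed the fold threshold in 6 settings. HOXD4 for MDA-MB-436 against MCF10A as labelled lost its call in 11. The depth labels were used as a replicate block: the counts stayed at 17 higher and 9 lower, 11 and 14, and 6 and 17, and no call changed. Over all 15638 genes tested, libraries with the same depth label did not deviate together (correlations across genes -0.0028, 0.0073 and 0.0276), so they were not taken as pairs. Over the 9363 genes with higher counts in all 6 libraries these correlations were 0.0915, -0.085 and -0.171, small and of mixed sign. Detected genes numbered 17 to 22 in MCF10A, 18 to 35 in the libraries labelled HT-29 and 23 to 32 in those labelled MDA-MB-436 with minimums of 50 and 1.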
